A study of Mus musculus with 46 samples.

Results

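Loci bound by Hnf4α, by C/EBPα or by both were compared in the liver of mice kept on a carbohydrate-rich diet (CD). A locus of a factor was kept when a peak of its replicate 1 and a peak of its replicate 2 shared at least 1 bp, and Hnf4α and C/EBPα loci that shared at least 1 bp were merged. The 38576 resulting loci were sorted into those bound by both factors (8354), by Hnf4α alone (20532) and by C/EBPα alone (9690). Peaks of all 8 factor libraries of the series, of both diets, merge into 138466 regions. "Alone" means that the other factor had no locus with peaks in both of its replicates there, not that it gave no peak in either library.

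The animals were male C57BL/6 mice, 5 weeks of age when they were housed for the study and then fed for 20 weeks with either CD or a lipid-rich diet (LD). The labels name no altered allele and no agent other than the diet. Occupancy was measured by ChIP-seq in whole liver, with 2 libraries for each factor and 3 libraries for H3K27ac on CD, RNA by RNA-seq in 5 CD libraries, and contacts between promoters and distal fragments by promoter capture Hi-C in a single pooled CD list. The LD factor libraries, 2 for each factor, were used only as data that the sorting of the loci had not seen. Which libraries of different assays came from the same animal is not stated in the sources used here, so p-values measure only the spread between these libraries. Whole liver holds all of its cell types, and a smaller number of cells that bind a factor cannot be told apart from weaker binding in each cell.

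Hnf4α is a nuclear receptor that binds DNA as a homodimer and is a central regulator of hepatocyte identity, with targets in lipoprotein secretion, bile acid synthesis, blood coagulation and ureagenesis. C/EBPα is a basic leucine zipper factor that binds as a dimer to a palindromic element and is known in liver for control of gluconeogenic, lipogenic and acute phase genes. Both are known to occupy enhancers as well as promoters, and H3K27ac, acetylation of lysine 27 of histone H3, marks the active ones.

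Sequences under 6 loci show what the classes look like at the base level. They are reference sequence of the mm9 build, plus strand, 5′ to 3′, with capitals on matches to CAAAGNNCA (a relaxed HNF4 site), TTGCNNAA (a relaxed C/EBP site) or TGATGCAA (an ATF-C/EBP composite site), on either strand. The first 3 are the highest locus of each class by the mean rank of its peak heights, with only the central 100 bases of the third shown.
Mgst1, bound by both, chr6:138088484-138088783: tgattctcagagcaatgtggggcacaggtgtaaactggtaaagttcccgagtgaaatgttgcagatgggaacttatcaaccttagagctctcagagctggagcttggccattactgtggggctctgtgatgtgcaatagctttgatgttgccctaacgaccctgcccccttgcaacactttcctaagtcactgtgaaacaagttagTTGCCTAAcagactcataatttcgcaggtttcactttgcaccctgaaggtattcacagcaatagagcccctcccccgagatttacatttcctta
Hjurp, bound by Hnf4α alone, chr1:90175764-90175979: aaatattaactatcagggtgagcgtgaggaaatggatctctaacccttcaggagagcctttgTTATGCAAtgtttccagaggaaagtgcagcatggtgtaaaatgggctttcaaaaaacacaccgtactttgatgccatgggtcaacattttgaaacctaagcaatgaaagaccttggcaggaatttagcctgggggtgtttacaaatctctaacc
Rn45s, bound by C/EBPα alone, chr17:39984771-39984870: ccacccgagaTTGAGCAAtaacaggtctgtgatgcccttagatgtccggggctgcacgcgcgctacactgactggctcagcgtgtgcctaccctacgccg
The next is the promoter locus of Elovl6, which encodes the elongase that lengthens palmitate and related fatty acids.
Elovl6, bound by both, chr3:129234875-129235174: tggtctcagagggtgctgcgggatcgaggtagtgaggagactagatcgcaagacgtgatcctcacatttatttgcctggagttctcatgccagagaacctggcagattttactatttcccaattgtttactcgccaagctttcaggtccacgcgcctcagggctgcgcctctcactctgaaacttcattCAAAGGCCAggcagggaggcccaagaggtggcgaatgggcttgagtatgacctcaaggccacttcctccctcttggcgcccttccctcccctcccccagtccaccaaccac
The last 2 were chosen after their sequences or values were seen, because each holds a clear match to the element named for it: an HNF4 site under an Hnf4α alone locus, and a composite site under a C/EBPα alone locus.
Snai1, bound by Hnf4α alone, chr2:167390545-167390760: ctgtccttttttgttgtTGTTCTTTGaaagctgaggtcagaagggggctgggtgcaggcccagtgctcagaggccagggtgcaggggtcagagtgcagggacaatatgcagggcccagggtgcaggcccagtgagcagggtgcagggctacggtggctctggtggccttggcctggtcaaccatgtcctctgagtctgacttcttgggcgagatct
Chac1, bound by C/EBPα alone, chr2:119176613-119176912: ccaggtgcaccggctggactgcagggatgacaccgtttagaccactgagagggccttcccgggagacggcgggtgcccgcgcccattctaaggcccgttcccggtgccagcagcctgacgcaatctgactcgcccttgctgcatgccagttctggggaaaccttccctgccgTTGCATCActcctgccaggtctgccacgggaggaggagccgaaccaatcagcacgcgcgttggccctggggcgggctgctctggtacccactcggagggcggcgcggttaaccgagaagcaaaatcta
The highest locus of the Hnf4α alone class held a C/EBP match and no HNF4 match, and the highest locus bound by both held a C/EBP match only. A match is a description of the letters and not a bound site.

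The Hnf4α libraries held 35143 and 47992 peaks and the C/EBPα libraries 41713 and 46371. Peak height is given as tags per 10 M (M for mega), and the ratio of deposited tags to height gave 40 M tags behind each Hnf4α library and 20 M behind each C/EBPα library. A peak at the same height therefore rests on fewer tags in the C/EBPα libraries, whose lowest height was 5, against 3.25 and 3.5 for Hnf4α. Heights were compared within a factor only. The RNA libraries held between 32.45 and 39.01 M counts, and both factors were transcribed: Hnf4a was at 165, 200.3, 186, 187 and 185 TPM, and Cebpa at 251, 292, 249, 252 and 261 TPM, in CD libraries 1, 2, 13, 4 and 5. The hepatocyte marker genes had a median of 4455 ± 422 TPM (SD, n = 5), against 34.6 ± 9.0 for Kupffer cell and macrophage, 34.0 ± 2.0 for endothelial, 13.2 ± 2.1 for stellate, 1.15 ± 0.40 for cholangiocyte and 0.823 ± 0.097 for lymphocyte markers.

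The Hnf4α libraries shared more of their peaks than the C/EBPα libraries did. Of 54248 Hnf4α regions found in either replicate, 28887 (53.2%) had a peak in both, and of 70040 C/EBPα regions 18044 (25.8%) did. For Hnf4α 82.2% of the peaks of replicate 1 and 60.2% of those of replicate 2 were kept, and for C/EBPα 43.3% and 38.9%. High peaks recurred and low ones often did not: in each of the 4 libraries 99.1 to 99.6% of the highest 10% of peaks were found again in the other replicate, but of the lower 50% of peaks 66.8% and 33.1% were found for Hnf4α and 10.7% and 6.25% for C/EBPα. Over the kept loci the log2 heights of the replicates correlated across loci at r = 0.944 for Hnf4α and 0.922 for C/EBPα, and loci within a library are not independent. The replicates differed in overall height, with a median ratio of replicate 2 to replicate 1 of 1.93 for Hnf4α and 0.708 for C/EBPα. Peaks that only 1 C/EBPα library held were low, with median heights of 8.5 and 7, and on average 30.5% and 16.3% of them lay in H3K27ac intervals, against 75% and 74.9% of the peaks that recurred. Peaks of only 1 Hnf4α library, with median heights of 5.75 and 11, lay in H3K27ac intervals at 48.1% and 56.2%, against 82.2% of recurring peaks in each library.

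With peaks required in both replicates, a larger share of the C/EBPα loci than of the Hnf4α loci was shared, an order that turned when either C/EBPα library was left out. C/EBPα was present at 8355 of 28887 Hnf4α loci (28.9%, 95% Wilson interval 28.4 to 29.4%), and Hnf4α at 8354 of 18044 C/EBPα loci (46.3%, 45.6 to 47.0%). Such intervals cover counting error only, since neighbouring loci and those of 1 library are not independent. At 8353 of the 8354 shared loci a single locus of each factor met, with a median distance of 38.5 bp between the peak centres, and the centres lay within 50 bp at 61.2% and within 100 bp at 84.6%. The height of one factor said little of the height of the other over the shared loci (r = 0.299 and rho = 0.294 across loci on log2 heights and ranks, given as a description). Without C/EBPα replicate 1 the shares were 33.1% of Hnf4α and 20.6% of C/EBPα loci, and without C/EBPα replicate 2 39.1% and 27.1%. The counts depend on the libraries used as well. Without Hnf4α replicate 1, so that a single library defined its loci, Hnf4α alone grew to 36962, and without C/EBPα replicate 1 or 2 C/EBPα alone grew to 36816 and 30416, while the shared class stayed between 8802 and 11297. With only the 20000 highest peaks of each library Hnf4α alone fell to 11395.

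Loci bound by both factors were higher for each factor than loci of that factor alone, in each library. Hnf4α peaks at shared loci had a median height of 24.1 in replicate 1 (quartiles 14.8 to 41.5) and 50.5 in replicate 2 (29 to 88.5). At Hnf4α alone loci the medians were 16.5 (10.2 to 27.5) and 31.2 (18 to 55.5). C/EBPα peaks had medians of 40 (24 to 68) and 26.25 (16.5 to 46) at shared loci and of 23.5 (15 to 39) and 16.5 (11 to 26.5) at C/EBPα alone loci. Each quartile stood higher at shared loci, but the interquartile ranges of the classes overlapped in each library, so height did not separate the classes. Among the highest 10% of its factor stood 17.1% of shared against 7.11% of alone loci for Hnf4α, and 15.9% against 4.89% for C/EBPα.

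**Figure D1:**
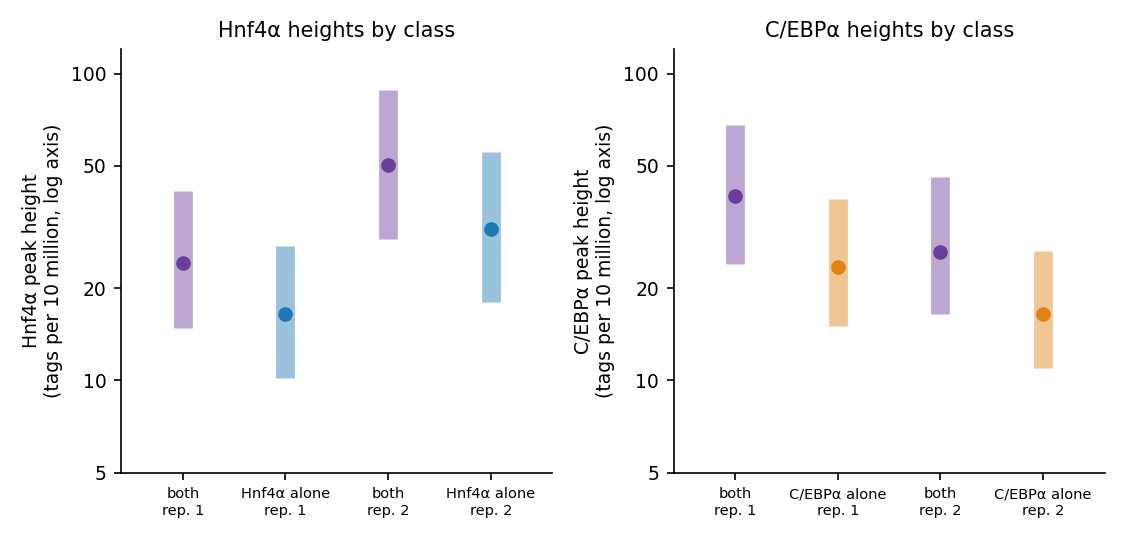
Peak heights by class, in tags per 10 M on a log axis, for Hnf4α (left) and C/EBPα (right) in each CD replicate; points are medians and bars run from the lower to the upper quartile over loci. In Hnf4α replicate 2 the median was 50.5 at loci bound by both and 31.2 at Hnf4α alone loci.

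Read from the other side, the share of loci that the other factor also bound rose with height. The loci of each factor were split into 10 bins of equal size by height. From the lowest to the highest bin of Hnf4α height, the share of loci also bound by C/EBPα went from 11.2% (Wilson interval 10.1 to 12.4%) to 49.5% (47.7 to 51.3%). For C/EBPα it went from 15.4% (13.8 to 17.2%) to 73.7% (71.7 to 75.7%). Each bin stood above the one before it for both factors. The same held for loci beyond 5 kb of a TSS at the ends of the range, where the share was 11.1% and 52.0% for Hnf4α and 14.8% and 78.3% for C/EBPα. The part of peak calling in this trend was not tested.

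**Figure D2:**
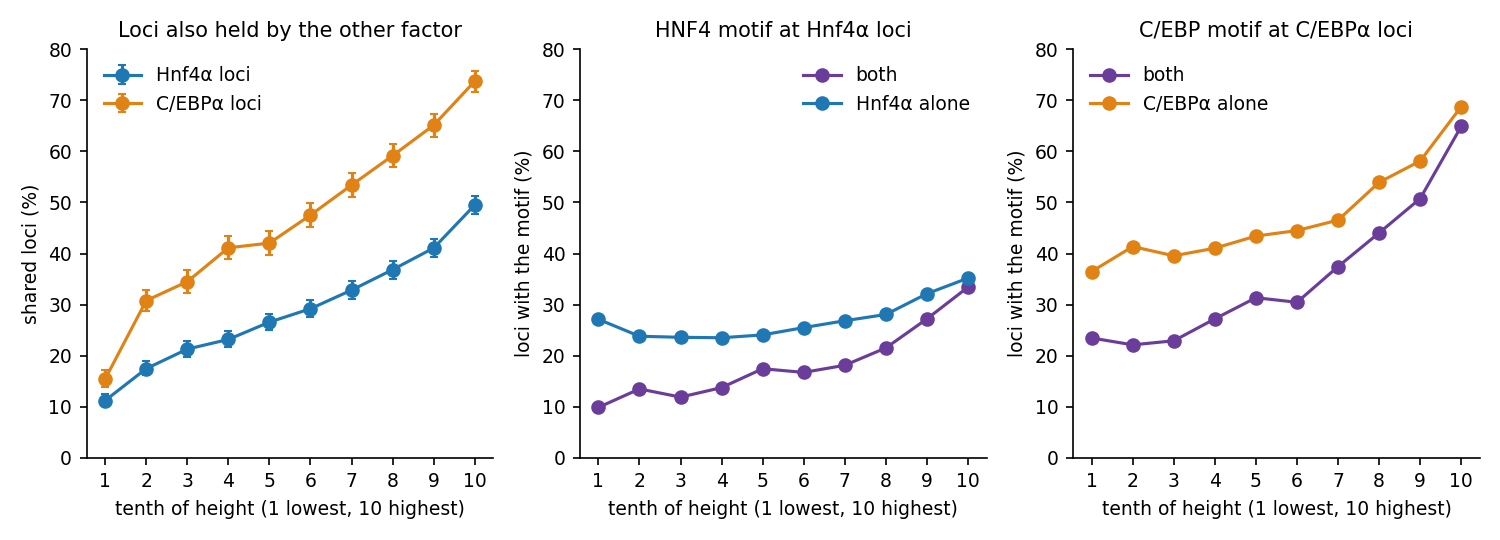
Loci in 10 bins of height of their factor (1 lowest, 10 highest), with the percent of Hnf4α and C/EBPα loci that the other factor shared (left, bars are 95% Wilson intervals) and the percent of loci of each class with a relaxed HNF4 (middle) or C/EBP (right) match around the peak of the factor. The shared percent of C/EBPα loci runs from 15.4 in the lowest bin to 73.7 in the highest.

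Each class carried the element of the factor that bound it, and over all distances the loci of one factor alone carried it more often than the shared loci. In 200 bp windows centred on the loci, the relaxed HNF4 site was present in 26.5% of Hnf4α alone loci, 19.4% of shared loci and 6.00% of C/EBPα alone loci, against 4.66 to 4.98% of windows 1000 bp away. The relaxed C/EBP site was present in 44.7% of C/EBPα alone loci, 38.5% of shared loci and 10.7% of Hnf4α alone loci, against 8.19 to 8.39% of the distant windows. The stricter strings gave the same order. CAAAGTCCA was in 6.26% of Hnf4α alone, 3.94% of shared and 0.382% of C/EBPα alone loci, and the palindrome TTGCGCAA in 3.69% of C/EBPα alone, 0.97% of shared and 0.0146% of Hnf4α alone loci. The composite TGATGCAA was in 5.45%, 4.24% and 0.638% in that order. The strings overlap in letters, so one stretch can count for the C/EBP site and the palindrome. Only 7.32% of shared loci held both relaxed sites, against 2.99% of Hnf4α alone and 2.63% of C/EBPα alone loci, and 49.3% of shared loci held neither. Within 1 kb of a TSS the relaxed HNF4 site was in 13.7% of shared and 12.5% of Hnf4α alone loci, and the relaxed C/EBP site in 32.8% of shared and 32.6% of C/EBPα alone loci. The stricter strings kept their order there, with CAAAGTCCA at 2.43% of shared and 2.88% of Hnf4α alone loci, TTGCGCAA at 2.78% of shared and 3.29% of C/EBPα alone loci, and TGATGCAA at 2.67% and 3.90% of the same. Over all distances the order of alone and shared loci held within each of the 10 height bins, with windows centred on the peaks of the factor itself. In the lowest bin of Hnf4α height 27.1% of alone and 9.88% of shared loci held the HNF4 site, and in the highest 35.2% and 33.4%. For C/EBPα the same shares were 36.5% and 23.5% in the lowest bin and 68.8% and 64.9% in the highest.

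With peaks required in both replicates, loci of one factor alone lay at promoters more often than shared ones did. The share within 1 kb of a TSS was 10.3% of shared loci (864, interval 9.71 to 11%), 16.2% of Hnf4α alone loci (3330, 15.7 to 16.7%) and 18.6% of C/EBPα alone loci (1798, 17.8 to 19.3%). The median distance to the nearest TSS was 20 kb, 17.4 kb and 15.9 kb. Introns held 48.6% of the centres of shared loci, 49.4% of those of Hnf4α alone and 47.1% of those of C/EBPα alone loci, exons 6.91%, 10.51% and 10.21%, and the rest lay between genes. Where C/EBPα alone stands rests on the demand for both replicates. Its share within 1 kb was 8.73% without C/EBPα replicate 1 and 11% without C/EBPα replicate 2, when shared loci were at 10.9% and 11% and Hnf4α alone at 16.3% and 16.8%. Hnf4α alone minus C/EBPα alone was -2.34 percentage points (interval -3.26 to -1.41), but without C/EBPα replicate 1 it was 7.59 and without C/EBPα replicate 2 it was 5.79. Taken over all peaks, 15.8% and 14.7% of the Hnf4α libraries and 11% and 9.18% of the C/EBPα libraries lay within 1 kb of a TSS, so the libraries of the factors did not overlap. That difference of 5.12 ± 1.06 percentage points could not pass a threshold with 2 libraries against 2 (two-sided exact permutation test, p = 0.33, the smallest that this design allows), and with the 20000 highest peaks of each library it was -0.295.

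**Figure D3:**
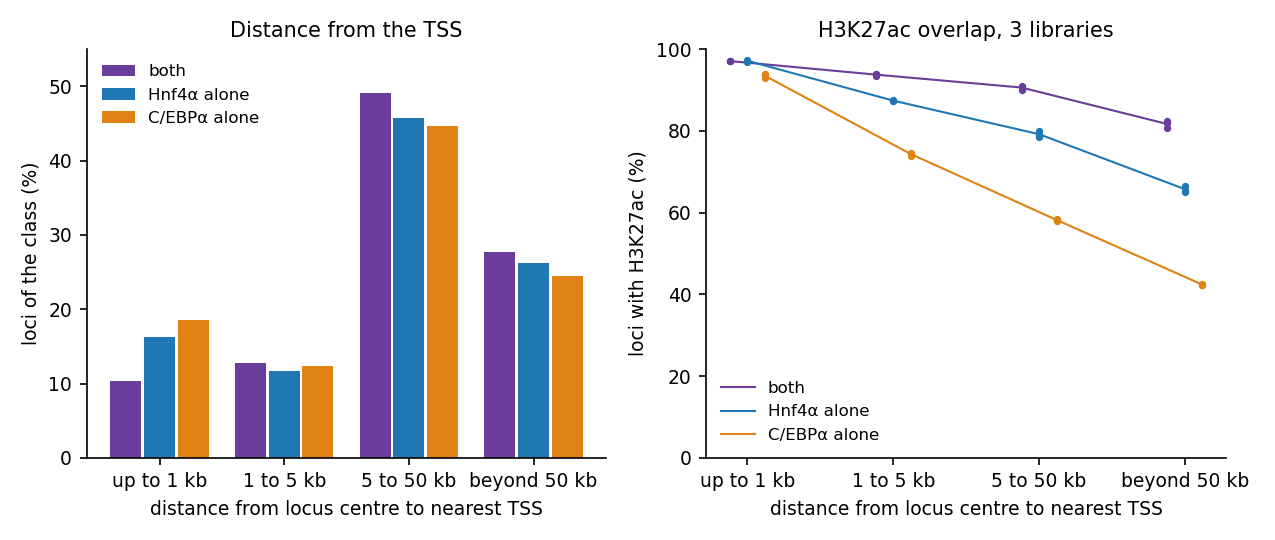
Loci by distance to the nearest TSS: percent of each class in each distance bin (left) and percent of loci in an H3K27ac interval (right), with points for the 3 H3K27ac libraries. Up to 1 kb 97.1% of loci bound by both lay in an interval, and beyond 50 kb 81.7% did.

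Acetylation followed the classes in the order shared, Hnf4α alone, C/EBPα alone. H3K27ac intervals of libraries 1, 2 and 3 covered 89.3%, 88.6% and 89.7% of shared loci, 79.4%, 79.2% and 80.1% of Hnf4α alone loci, and 63.1%, 62.8% and 62.7% of C/EBPα alone loci. The classes did not overlap in any library. The share at shared loci was higher than at Hnf4α alone loci by 9.66 ± 0.20 percentage points (SD, n = 3) and than at C/EBPα alone loci by 26.3 ± 0.57, in 3 of 3 libraries each. With 3 libraries the exact sign-flip permutation test cannot go below p = 0.25 (two-sided, adjusted p = 0.312 over 5 tests), which both differences gave. No interval in any library covered 626 shared loci (7.49%), 3258 Hnf4α alone loci (15.9%) and 3109 C/EBPα alone loci (32.1%).

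The classes differed less near promoters than far from them. Up to 1 kb from a TSS the mean share in H3K27ac intervals was 97.1% for shared, 97.2% for Hnf4α alone and 93.5% for C/EBPα alone loci, and beyond 50 kb it was 81.7%, 65.8% and 42.4%. Height moved with acetylation too. The loci of each factor were also split into 3 tiers of height. Among loci beyond 5 kb in the lowest tier of Hnf4α height, 67.0% of shared and 53.9% of Hnf4α alone loci were acetylated, and in the highest tier 96.2% and 94.9%. For C/EBPα the gap was wider and lasted, at 78.8% against 37.1% in the lowest tier and 92.3% against 74.5% in the highest. With only the 20000 highest peaks of each library the difference between shared and Hnf4α alone loci was 2.42 percentage points. Without C/EBPα replicate 1 or 2 the difference to C/EBPα alone loci was 62.3 and 51.7, and without Hnf4α replicate 1 or 2 that to Hnf4α alone loci was 17.2 and 16.4. Seen from the intervals, 13.5 ± 0.52% (SD, n = 3) held a shared locus. Hnf4α alone loci and no other class were held by 19.5 ± 0.65%, and C/EBPα alone loci and no other class by 6.48 ± 0.16%. Both kinds of alone loci without a shared locus were held by 3.33 ± 0.11%, and no locus by 57.1 ± 1.4%. Intervals with a shared locus had a median width of 3.6 to 3.8 kb in the 3 libraries, and those with none 1.6 kb.

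Over all loci, genes nearest to shared loci had higher median levels than those nearest to loci of one factor alone, but among loci split by acetylation the order against C/EBPα alone was the other way in each of the 3 sets and that against Hnf4α alone in 2 of them. The median over the 5114 genes nearest to a shared locus was 5.95, 6.85, 6.73, 6.85 and 6.56 TPM in CD libraries 1, 2, 13, 4 and 5. Over the 9580 genes nearest to an Hnf4α alone locus it was 4.88, 5.63, 5.58, 5.69 and 5.48, and over the 6667 genes nearest to a C/EBPα alone locus 4.58, 5.29, 5.24, 5.42 and 5.25. Library 1 was the lowest of the 5 in each class, and in each library the shared class was the highest. A gene can be nearest to loci of more than one class and then counts in each. On the log2(TPM + 1) scale the shared class was higher than Hnf4α alone by 0.23 ± 0.0081 (SD, n = 5) and than C/EBPα alone by 0.30 ± 0.020, in 5 of 5 libraries each. Each gave p = 0.063 in a two-sided exact sign-flip permutation test, the smallest that 5 libraries allow (adjusted p = 0.156 over 5 tests). Among loci in H3K27ac intervals of all 3 libraries the medians were 8.79 ± 0.48 TPM for shared, 8.35 ± 0.45 for Hnf4α alone and 10.2 ± 0.62 for C/EBPα alone loci. Among loci in intervals of 1 or 2 libraries they were 1.26 ± 0.17, 2.69 ± 0.14 and 3.59 ± 0.26, and among loci in none 0.281 ± 0.038, 0.547 ± 0.043 and 0.791 ± 0.047. Distance moved with these sets: of loci acetylated in all 3 libraries, C/EBPα alone loci lay at a median of 7.39 kb from a TSS with 29.6% within 1 kb, and shared loci at 17.5 kb with 11.6%. Split by distance instead, the shared class stayed the highest, with 13.3 ± 0.69 TPM against 10.3 ± 0.59 for Hnf4α alone and 9.0 ± 0.47 for C/EBPα alone within 10 kb, and 4.82 ± 0.30, 3.49 ± 0.20 and 3.02 ± 0.16 beyond it. The classes were not compared with acetylation and distance held together. These are levels in whole liver, in which fewer cells of a type cannot be told apart from less RNA per cell. With the 20000 highest peaks of each library the difference to Hnf4α alone was 0.073 and that to C/EBPα alone 0.40. The differences depend on the libraries, since without C/EBPα replicate 1 or 2 the difference to C/EBPα alone was 1.37 and 1.15 and that to Hnf4α alone 0.16 and 0.13. Without Hnf4α replicate 1 or 2 the difference to Hnf4α alone was 0.46 and 0.40, and without Hnf4α replicate 1 that to C/EBPα alone was 0.19.

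**Figure D4:**
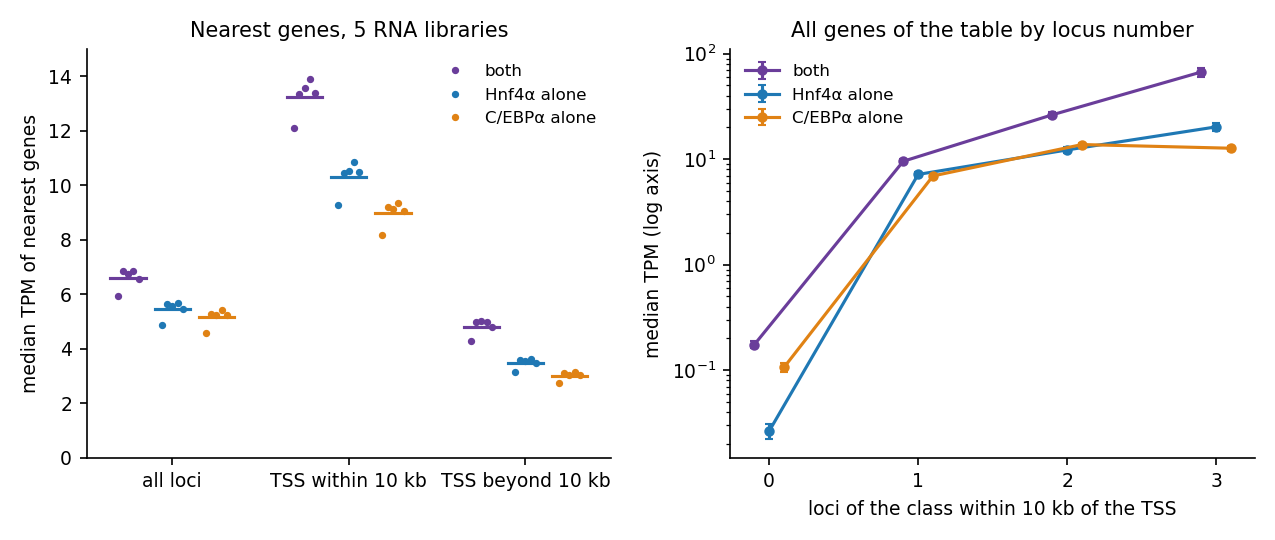
Median TPM of the genes nearest to loci of each class in the 5 CD RNA libraries (left, points are libraries), and of all genes of the table by the number of loci of a class within 10 kb of the TSS (right, log axis). With 1 locus bound by both the median was 9.56 TPM and with 3 it was 67.0.

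Levels rose with the number of shared loci. Genes with 0, 1, 2 and 3 shared loci within 10 kb of the TSS, numbering 22372, 2694, 377 and 51, had medians of 0.175 ± 0.014, 9.56 ± 0.46, 26.4 ± 1.8 and 67.0 ± 6.5 TPM (SD, n = 5), and the libraries of neighbouring numbers did not overlap. For Hnf4α alone the medians over the same numbers of loci were 0.027 ± 0.0044, 7.18 ± 0.43, 12.2 ± 0.76 and 20.3 ± 1.7, and for C/EBPα alone 0.107 ± 0.0098, 6.95 ± 0.36, 13.8 ± 0.60 and 12.7 ± 0.73. From 2 to 3 C/EBPα alone loci, over 602 and 65 genes, the median did not rise. With 4 or more loci it was 29.3 ± 1.1 over 91 genes for Hnf4α alone and 36.7 ± 2.1 over only 5 genes for C/EBPα alone, and no gene had 4 or more shared loci. The 14628 genes with no locus of any class (57.4% of 25494) had a median of 0, and the 554 genes with loci of all 3 classes a median of 21.0 ± 1.4 TPM. Gene number per window and the total number of loci differ between these sets, and their part was not tested.

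The highest shared loci lay at genes of very different levels. The first stood 0.425 kb upstream of Mgst1, which encodes a microsomal glutathione transferase of hepatocytes, between genes (chr6:138088476-138088790), with Hnf4α heights of 153.5 and 297.5 and C/EBPα heights of 365 and 252 in replicates 1 and 2. Mgst1 was at 7369 ± 258 TPM (SD, n = 5). The next stood in an intron of Aco1, the cytosolic aconitase that also acts as an iron regulatory protein, 38.6 kb downstream of its TSS (chr4:40128774-40129094), with Hnf4α at 275.8 and 516 and C/EBPα at 194.5 and 124. Aco1 was at 131 ± 8.4 TPM. The third lay in an intron of the Ugt1a cluster 1.84 kb downstream of the TSS of Ugt1a1, the bilirubin glucuronosyltransferase (chr1:90110219-90110537), with Hnf4α at 106.5 and 259 and C/EBPα at 303 and 187. The locus nearest to Inhbe, the subunit of activin E, had Hnf4α at 113.8 and 255.5 and C/EBPα at 173.5 and 133.5 and stood 0.648 kb upstream (chr10:126789319-126789634). Inhbe ranged from 32.0 to 71.2 TPM over the 5 libraries. The loci nearest to Tor3a (4.24 ± 0.62 TPM) and Atxn7l1 (2.15 ± 0.97 TPM) were among the 8 highest as well. All 8 lay in H3K27ac intervals of each of the 3 libraries and were called in each LD library of both factors.

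Of the 8 highest Hnf4α alone loci named, 7 lay beyond 1 kb of a TSS. Loci beyond 50 kb, 26.3% of the class, were not eligible. That nearest to Hjurp (chr1:90175764-90175979), in an intron of Trpm8, had Hnf4α at 251.5 and 583, but also a C/EBPα peak of height 166 in replicate 1 only and a peak in both LD C/EBPα libraries, so it is alone by the rule and not by the other libraries. That nearest to Snai1 (chr2:167390545-167390760), 27 kb from its TSS, had Hnf4α at 268.2 and 464.8 and no C/EBPα peak in any of the 4 libraries of both diets. Snai1, a repressor known from epithelial to mesenchymal transition, was at 0.382 ± 0.16 TPM. The locus 9.74 kb upstream of Ass1, the argininosuccinate synthase of the urea cycle, had Hnf4α at 246.2 and 392.2 and no C/EBPα peak in any of the 4 libraries (chr2:31315944-31316162, in an exon annotated to Hmcn2). Ass1 was at 2167 ± 223 TPM. The locus 4.39 kb upstream of Tle3, a corepressor, had 248.2 and 444 (chr9:61215669-61215903). Of the 8, 3 had a C/EBPα peak in 1 CD library.

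Of the 8 highest C/EBPα alone loci named, 6 lay within 1 kb of a TSS. Loci beyond 50 kb, 24.5% of the class, were not eligible. The first lay 4.88 kb downstream of the TSS of the ribosomal RNA gene Rn45s (chr17:39984663-39984978), where the annotation holds no gene, with heights of 1256 and 1167 but only 7.88-fold and 9.49-fold over input, and no H3K27ac interval in any library. The part of repeated ribosomal DNA in this peak was not tested. The locus in an intron of Lhx1, a homeobox gene of kidney and neural development (chr11:84336126-84336440), had 311 and 211, while Lhx1 stood at 0 TPM in 3 of 5 libraries. That at Chac1, a glutathione-degrading enzyme of the amino acid and unfolded protein response, lay 0.216 kb upstream with 239.5 and 222.5 (chr2:119176605-119176919). That at Cotl1, which encodes an actin-binding protein, lay 0.088 kb upstream with 240.5 and 200 (chr8:122364410-122364724). That at Smad6, an inhibitor of BMP signals, lay 0.036 kb upstream with 256 and 183.5 (chr9:63869745-63870059). An Hnf4α peak of replicate 2 alone, with heights from 9.75 to 62.5, was present at 6 of the 8, and Rn45s had no Hnf4α peak in any of the 4 libraries of both diets.

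Gene lists for hepatocyte functions held many genes with a shared locus within 10 kb of the TSS, and the short lists for other liver cells held none there. Over all 25494 genes of the table the background was 12.2% with a shared locus, 29.3% with Hnf4α alone, 18.5% with C/EBPα alone and 42.6% with any. Of 15 acute phase genes 12 had a shared locus, 12 Hnf4α alone and 5 C/EBPα alone. Of 16 genes of the urea cycle and amino acid catabolism 12, 13 and 6 did, of 15 bile acid genes 11, 11 and 7, and of 25 coagulation and complement genes 18, 21 and 13. De novo lipogenesis had 10, 10 and 8 of 15, gluconeogenesis and glycogen 9, 13 and 8 of 15, and apolipoproteins and VLDL 10, 14 and 9 of 16. Fatty acid oxidation and ketogenesis had 7, 15 and 7 of 16. Cholesterol synthesis had 4, 7 and 6 of 17, the lowest shares among the metabolic lists for shared and for Hnf4α alone loci. Idi1, Mvk and Pmvk had no locus within 10 kb, though within 50 kb Mvk had 2 Hnf4α alone and Pmvk 4 C/EBPα alone loci. Hmgcs1, counted among the 17, had none either. The RNA table places it on unplaced sequence of chromosome 13 and lists it at 0 TPM, so its loci could not be read. Housekeeping genes had 5, 12 and 7 of 16, all above the background as well, so a count above it is not particular to hepatocyte functions. Of 10 Kupffer cell and macrophage, 8 endothelial, 8 stellate, 6 cholangiocyte and 5 lymphocyte markers, none had a shared locus within 10 kb, and 9 of 10 hepatocyte markers did. Within 50 kb 10 of these 37 markers of other cells had one, among them Lyve1 with 3 and Stab2 with 2, and all 10 hepatocyte markers did, against 34.9% of all genes of the table. Hnf4α alone loci were present at 2 Kupffer cell, 3 endothelial and 1 cholangiocyte markers, and C/EBPα alone loci at 2 Kupffer cell, 3 endothelial and 1 lymphocyte markers. Median levels of the lists moved only in part with these counts. Liver transcription factors, at 29.2 ± 4.4 TPM, had a shared locus at 13 of 26 genes, while Kupffer cell and endothelial markers at like levels had none, and lipogenic genes (211 ± 27 TPM) had more than housekeeping genes (245 ± 12 TPM). The part of level in the counts was not tested.

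**Figure D5:**
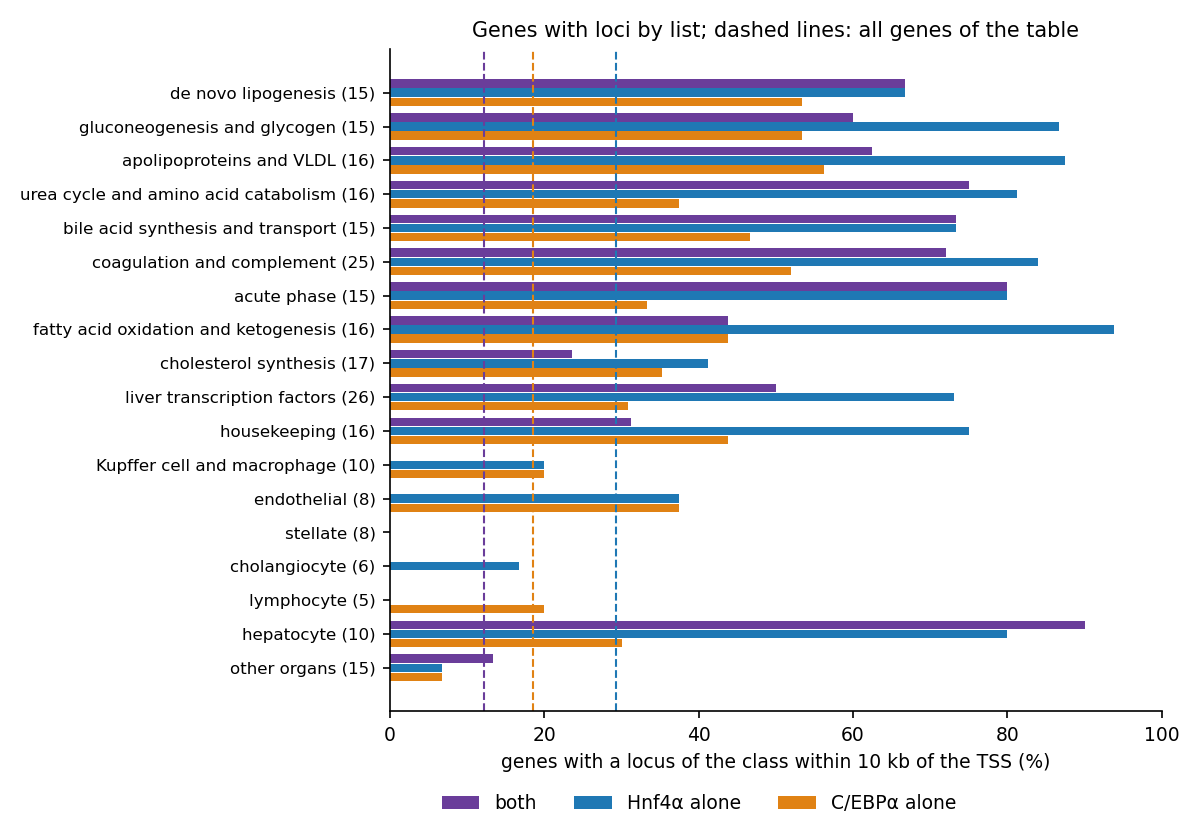
Percent of the genes of each list with a locus of each class within 10 kb of the TSS (bars by class, number of genes in brackets); dashed lines give the same over all genes of the table. Acute phase stands at 12 of 15 for loci bound by both, against 12.2% over all genes.

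Of the 15 lipogenic genes, 10 had a shared locus within 10 kb of the TSS, and Acacb, Acss2 and Me1 had none within 50 kb. Elovl6 had 2, at 0.28 kb upstream with Hnf4α at 41.5 and 97.2 and C/EBPα at 80.5 and 68.5, and at 1.71 kb upstream with 55.8 and 120.5 and 66 and 46.5. Within 50 kb it had 5 Hnf4α alone loci and 1 C/EBPα alone locus as well, and its highest Hnf4α locus (133 and 244.8) was an alone locus in an intron 32.6 kb downstream, with a C/EBPα peak of height 26 in replicate 1. Elovl6 was at 155, 153, 146, 123 and 119 TPM in libraries 1, 2, 13, 4 and 5. Fasn, the fatty acid synthase, had its shared locus 6.35 kb upstream with Hnf4α at 74.5 and 165.2 and C/EBPα at 192.5 and 113.5. Acly, the ATP citrate lyase, had a shared locus 1.02 kb upstream with 20.8 and 60.2 and 100 and 76.5, and another 9.56 kb downstream with 36.5 and 82.5 and 39 and 31. At Scd1, the stearoyl-CoA desaturase, an Hnf4α alone locus (26.5 and 43) and a C/EBPα alone locus (21.5 and 12) lay near the TSS, the latter with an Hnf4α peak in 1 CD library, and a shared locus 8.66 kb upstream (74.5 and 122.5, 28 and 20). Cd36, the fatty acid transporter, had 2 shared loci within 50 kb, in introns 12.2 and 25.7 kb downstream. Adgrf1, an adhesion G protein-coupled receptor and not a lipid enzyme, also had 2 within 50 kb, at 0.182 kb (46.2 and 66.8, 22.5 and 12.5) and 40.1 kb downstream (16 and 32.2, 27.5 and 20.5). Ppara, the nuclear receptor of fatty acid oxidation, had 5 Hnf4α alone loci and no shared one within 10 kb of its table TSS, the highest at 114.5 and 235, and at that one each C/EBPα library had a peak but the 2 peaks did not meet. Over its 6 annotated transcript starts Ppara had 1 shared and 9 Hnf4α alone loci. Cpt1a, which admits long-chain fatty acids to mitochondria, had 2 shared loci within 10 kb, the higher with 102.2 and 219.8 for Hnf4α and 95 and 86 for C/EBPα. Sqle, the squalene epoxidase, had 2 low C/EBPα alone loci within 10 kb (12 and 10.5, 15 and 18.5) and 2 Hnf4α alone loci within 50 kb.

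Genes of glucose, bile acid, urea and plasma protein production showed each arrangement within 10 kb of the TSS. Pck1, the rate-limiting enzyme of gluconeogenesis, had a shared locus 0.292 kb upstream with Hnf4α at 105.2 and 273 and C/EBPα at 99 and 94, flanked by 3 Hnf4α alone loci and 1 C/EBPα alone locus. Pck1 ranged from 551 to 1409 TPM over the libraries. Fbp1, the fructose bisphosphatase, was shared 0.059 kb upstream (61 and 123.8, 38 and 25). Cyp7a1, the rate-limiting enzyme of bile acid synthesis, was shared 0.19 kb upstream with high Hnf4α (82.5 and 172.2) and low C/EBPα (26 and 18). Cyp8b1, which sets the share of cholic acid, had Hnf4α alone 0.058 kb upstream (35.5 and 84.2). Asl, the argininosuccinate lyase, had 3 shared loci and none of one factor alone within 10 kb. Ass1 had a shared locus 0.274 kb upstream (17.8 and 44, 38 and 20.5) that was lower for Hnf4α than its upstream alone loci. At Hp, the acute phase protein haptoglobin, C/EBPα was high (114.5 and 84.5) and Hnf4α low (15 and 36) 0.085 kb upstream. Fga, a fibrinogen chain, was shared 0.203 kb upstream (39 and 79.5, 100.5 and 69.5), while its neighbour Fgg carried C/EBPα alone 0.153 kb upstream (66.5 and 36). Within 10 kb F11, the coagulation factor, had 3 loci of each factor alone and no shared one, although 1 of its C/EBPα alone loci met an Hnf4α peak in each CD library. Within 50 kb it had 2 shared loci. Alb, at 61189 ± 4282 TPM, had only modest shared loci, with Hnf4α at 14 and 36.5 and C/EBPα at 16 and 7.5 at 0.105 kb upstream.

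Of the genes of the factors themselves, Cebpa had C/EBPα alone 0.185 kb upstream (44 and 54), Hnf4α alone 2.62 kb upstream (51 and 112.2), and no shared locus within 10 kb. Hnf4a had no locus within 10 kb of the TSS given in the RNA table, but over its 7 annotated transcript starts it had 1 shared, 3 Hnf4α alone and 1 C/EBPα alone. Within 10 kb Nr1h4, the bile acid receptor, had 2 shared loci and Prox1 none of any class, while within 50 kb Prox1 had 4 shared and 3 Hnf4α alone loci. Among 26 liver transcription factors 13 had a shared locus, 19 Hnf4α alone and 8 C/EBPα alone. The genes with the most shared loci within 50 kb were Hsd11b1, G0s2 and 3930402G23Rik with 8 each. Hsd11b1, which reactivates glucocorticoids, and G0s2, an inhibitor of adipose triglyceride lipase, are neighbours and share loci, and their levels differed, at 897 ± 31 and 240 ± 143 TPM. Of the genes with 7, the most transcribed were the fibrinogen genes Fgb, Fgg and Fga, again neighbours, followed by Dgat2 and Gpam, which act in triglyceride synthesis.

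Libraries of mice on LD, which the sorting had not used, kept the classes apart. Shared loci carried an Hnf4α peak at 93.4% and 92.5% in LD replicates 1 and 2 and a C/EBPα peak at 91.9% and 91.1%. Hnf4α alone loci carried Hnf4α at 86.5% and 83.3% and C/EBPα at 23.0% and 24.1%, and C/EBPα alone loci carried C/EBPα at 76.3% and 76.9% and Hnf4α at 27% and 27.7%. The same measure in the CD libraries was 14.5% and 6.45% for C/EBPα at Hnf4α alone loci, and 5.23% and 28.2% for Hnf4α at C/EBPα alone loci, values the rule itself holds down. No peak of the other factor in any of the 4 libraries of both diets was present at 12644 Hnf4α alone loci (61.6%) and 5202 C/EBPα alone loci (53.7%). These 12644 loci were lower, with median heights of 15.2 and 28.2, than the 1728 with C/EBPα in 3 libraries (20.35 and 42).

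Beyond 5 kb of a TSS, shared loci lay in a contacted distal fragment somewhat more often than loci of one factor alone. Of loci beyond 5 kb, 29.1% of shared loci (interval 28.0 to 30.3%), 26.1% of Hnf4α alone (25.4 to 26.8%) and 25.5% of C/EBPα alone loci (24.5 to 26.6%) lay in a distal fragment in contact with a captured promoter. Of those, 21.3%, 18.7% and 17.0% contacted the promoter of the nearest gene. In the same order of classes, 27.8%, 26.1% and 25.6% of loci from 5 to 50 kb lay in such a fragment. Beyond 50 kb 31.6%, 26.1% and 25.4% did. The contact list pools its replicates, so these shares have no replicate check.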

How the data were processed

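Members and gene lists were chosen with earlier results of these data known. ChIP-seq reads were aligned by the authors to mm9 with Bowtie 0.12.8 and deduplicated with Picard 1.110. HOMER peak lists were deposited with tag counts, a peak score (height, tags per 10 M, that is normalised signal) and the fold over input as a ratio. The authors called H3K27ac intervals with SICER, whose tag count, ratio and score columns are deposited beside them, and only interval positions were used. The deposited promoter capture Hi-C list holds interaction scores of pooled replicates. RNA-seq values are TPM deposited by the authors (STAR 2.5, featureCounts 1.5.0-p1) beside raw counts, which gave depth only. The authors' own comparison columns (fold changes, p-values) were not used.

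Peaks were merged at 1 bp, and exact permutation tests over libraries run, in Python 3.11.15 with pandas 2.3.3 and NumPy 2.4.6. Wilson intervals came from SciPy 1.17.1. No model was fitted across genes, since these are descriptions of classes. Classing was tested on simulated data, in which 10500 of 10500 loci came back as made. The simulated loci were well separated, with the peaks of a locus close together, and peaks of only 1 replicate were not scored. This checked the code and not the classing of weak or displaced peaks. Distances run from locus centres to the TSS of the RNA table, and TPM were compared as log2(TPM + 1). Motifs and sequences were read from mm9, in which 100% of 90458 fragment starts lay at a HindIII site (within 7 bp) and 82.8% of genes had an annotated start within 50 bp. Loci named were the 8 highest of each class by mean rank of height, and those of genes in the lists, with some items not reported here. In all 18 gene lists were used. Alternatives covered overlap, peak number, distance, pseudocount, chromosomes and left-out libraries.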

Additional observations from a re-analysis of the deposited data

Results flagged for a closer look

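In 8 of 53 groups of 5 RNA libraries, 1 library stood apart by Dixon's ratio for 5 samples (above 0.71), which chance gives in about 1 of 20 groups. The groups overlap, because the classes share genes. In 6 of them RNA library 1 was the low one, as the median log2(TPM + 1) of nearest genes: 3.71 for loci bound by both within 10 kb, 2.41 for loci bound by both beyond 10 kb, 2.56 for all Hnf4α alone loci, 3.36 for Hnf4α alone within 10 kb, 2.48 for all C/EBPα alone loci and 3.20 for C/EBPα alone within 10 kb. Without library 1 the differences between classes were 0.23 and 0.30, as with it. Ugt1a1 stood high in the library numbered 13 (145 TPM), and Cebpa in library 2 (292 TPM).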

How the results depend on the processing

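Of 108 alternative values, 57 stayed within the replicate spread or 1.5 times the count, 48 moved in the same direction and 3 turned. In the order H3K27ac share of shared loci minus Hnf4α alone and minus C/EBPα alone (percentage points), then nearest gene level minus each (log2), the values were 2.42, 21.8, 0.073 and 0.40 with the 20000 highest peaks of each library, where Hnf4α alone counted 11395. They were 8.68, 23.2, 0.22 and 0.23 when 50% of the shorter peak had to be covered, and 7.98, 21.0, 0.21 and 0.19 with centres within 100 bp. Where alone meant no peak in either library of the other factor they were 10.6 and 31.2, with a level of 0.18 against Hnf4α alone. Without X, Y and unplaced sequence the values against Hnf4α alone were 9.43 and 0.22. Beyond 5 kb the acetylation differences were 13.1 and 34.8. The level differences were 0.27 and 0.35 with a pseudocount of 0.1, 0.19 and 0.27 for genes with a mean TPM of at least 1, and 0.33 and 0.51 within 10 kb. The cause was not tested.

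Leaving out 1 library gave 17589 to 36962 Hnf4α alone loci (highest without Hnf4α replicate 1) and 7015 to 36816 C/EBPα alone loci (above 1.5 times without C/EBPα replicate 1 or 2). It gave acetylation differences of 8.30 to 17.2 and 25.8 to 62.3, and level differences of 0.13 to 0.46 and 0.19 to 1.37. The difference of Hnf4α alone and C/EBPα alone loci within 1 kb ran from -4.05 to 7.59, turning without C/EBPα replicate 1 (7.59) and 2 (5.79). It was -3.31 with 50% covered and -3.29 with centres within 100 bp. Over library peaks the difference turned to -0.295 with the 20000 highest peaks and was 6.64 within 5 kb. With the replicate block it was 5.12 ± 0.50, with a smallest exact p of 0.5. Same-numbered libraries did not deviate together (correlation -0.0255 over 8354 loci). Each factor had only 2 libraries and its own antibody, so this value cannot tell whether the numbers pair them.

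The C/EBPα libraries hold 20 M tags each and the Hnf4α libraries 40 M, and a peak of the other factor below the lowest listed height of its libraries was not detectable at a locus called alone.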

Other observations

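Elements of other liver factors were spread unevenly over the classes, given here as descriptions with the share in windows 1000 bp away. The HNF6 element ATTGATT was in 7.81% of Hnf4α alone, 5.66% of shared and 3.09% of C/EBPα alone loci (2.42 to 2.54% in distant windows). The FOXA element GTAAACA was in 6.44% of shared, 5.62% of Hnf4α alone and 3.97% of C/EBPα alone loci (2.61 to 3.05%). Within 1 kb of a TSS it was in 3.82%, 1.95% and 1.95% in that order, against 2.20%, 3.73% and 3.01% of their distant windows. The HNF1 string GTTAATNAT was in 1.41%, 1.54% and 0.754% of shared, Hnf4α alone and C/EBPα alone loci (0.492 to 0.754%). The ETS string CCGGAAGT was in 1.27% of C/EBPα alone, 0.707% of Hnf4α alone and 0.623% of shared loci (0.258 to 0.268%). The cAMP response element TGACGTCA was in 0.692%, 0.327% and 0.503% in that order (0.114 to 0.192%). Within 1 kb of a TSS the ETS shares were 4.96%, 3.27% and 4.06% in that order, and beyond 5 kb 0.388%, 0.210% and 0.187%. The part of TSS distance in the shares of these elements was not tested. The AP-1 string TGANTCA stood at 7.58%, 7.07% and 6.94% of shared, Hnf4α alone and C/EBPα alone loci, near the 5.68 to 5.99% of distant windows.

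Loci without H3K27ac in any library lay far from promoters, at a median of 46.2 kb for shared, 42.5 kb for Hnf4α alone and 34.4 kb for C/EBPα alone loci. Among 15 genes of other organs, Ins2 and Olig2 had a shared locus within 10 kb while being near or at 0 TPM, a share of 13.3% against 12.2% over all genes.

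Trib1, which encodes a pseudokinase known to promote degradation of C/EBPα, was chosen after its values were seen. It had 2 shared and 3 C/EBPα alone loci within 10 kb and no Hnf4α alone locus. Its highest was a C/EBPα alone locus 4.29 kb downstream with heights of 234 and 169, and a locus 4.70 kb upstream (81 and 80) lay in no H3K27ac interval. Trib1 was at 7.74, 11.6, 16.2, 18.6 and 13.01 TPM in libraries 1, 2, 13, 4 and 5.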
